A study of Homo sapiens with 18 samples.

Results

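RT112 and J82 are established lines from human bladder cancers, and their untreated cells were set against each other over all genes that could be named. Probe sets of the transcript cluster type that carry exactly 1 gene symbol were used, and where a symbol had several, the probe set with the highest mean over the 6 arrays stood for it. This gave 22465 genes of 67528 transcript cluster rows. The RT112 group holds 3 arrays and the J82 group 3, of 18 arrays in all; the other 12, which hold cells given palbociclib (an inhibitor of CDK4 and CDK6) or a further bladder line, were not used. Cells of both groups grew in the same serum-containing medium and received PBS, the vehicle of the drug experiment, and each array holds total RNA of a dish of its own. Each group is 1 cell line, so the p-values measure only the spread between dishes of these lines, and the number of arrays limits the precision.

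Urothelium, the lining of the bladder, has basal cells that carry KRT5, KRT14 and CDH3 and sit on the basement membrane, and luminal cells that make uroplakins and the transcription factors PPARG, GATA3 and FOXA1. Epithelial cells hold together through E-cadherin junctions, desmosomes and tight junctions, and the loss of these with a gain of N-cadherin and other mesenchymal genes is known as epithelial-mesenchymal transition. Bladder cancers are often described along both axes, the basal and luminal one and the epithelial and mesenchymal one.

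Values are log2 intensities as deposited, on which the 6 arrays had medians of 5.34 to 5.39. They reach 19.93, above the 16 of a 16-bit scan. The step behind this is not known here, so a log2 difference was not read as the log2 fold change of the signal. All differences below are RT112 minus J82 on this scale. Correlations between arrays over genes were 0.994 to 0.995 within RT112, 0.991 to 0.995 within J82 and 0.908 to 0.918 between the lines. A gene was called where limma gave a Benjamini-Hochberg adjusted p under 0.05 over all genes. That held for 8147 genes, or 36.3% of those tested, of which 4138 (18.4%) were higher in RT112 and 4009 (17.8%) lower. A difference of at least 1 was also reached by 1063 genes higher in RT112 (4.73% of all) and 1532 lower (6.82%). The median difference over all genes was 0.05. The arrays of the lines did not overlap for 11593 genes (51.6%), with RT112 above in 6551 (29.2%) and below in 5042 (22.4%). These shares are the background for every count that follows.

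The 15 highest and 15 lowest genes were picked among called genes whose arrays do not overlap, so their lack of overlap comes from the choice. The genes highest in RT112 over J82 included secreted proteins, keratins and carbonyl reductases. SPP1, which encodes the secreted protein osteopontin, read 15.92, 16.27 and 15.93 in RT112, against 5.33, 5.42 and 5.38 in J82 (difference 10.66 ± 0.13 SE, adjusted p = 2.72e-08). TM4SF1, a membrane protein of the tetraspanin-like family, read 15.53, 15.61 and 15.74 in RT112, against 5.12, 4.76 and 5.52 in J82. KRT13, a keratin of stratified epithelia, read 15.50, 15.52 and 15.51 in RT112, against 5.71, 5.53 and 5.56 in J82. For all 3 genes the J82 arrays read 5.71 or less, near the array medians, and every RT112 array stood far above them. AKR1B10 and CES1, a carbonyl reductase and a carboxylesterase, differed by 10.25 ± 0.11 and 10.17 ± 0.18. The other genes among the 15 highest were SFN, CYP4F11, KRT5, GPX2, CDH1, LPCAT2, KLK6, ABCA12, ANXA10 and ESRP1, the last with a difference of 6.84.

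The lowest genes included pregnancy-specific glycoproteins and interferon-induced genes. PSG9, PSG1 and PSG5, secreted glycoproteins otherwise made by the placenta, differed by -12.05, -11.77 and -11.45. SULF1, an enzyme that trims sulphate groups from heparan sulphate outside the cell, read 4.83, 4.92 and 4.64 in RT112, against 15.65, 15.93 and 16.48 in J82 (difference -11.23 ± 0.22, adjusted p = 8.03e-08). CALB2, the calcium-binding protein calretinin known as a mesothelial and neuronal marker, read 4.66, 4.31 and 4.32 in RT112, against 13.80, 13.86 and 13.68 in J82. In each of these genes every J82 array lay far above every RT112 array, and the RT112 values read 5.43 or less, near the array medians or under them. CDH10, a type II cadherin of the nervous system, followed the same pattern with a difference of -10.21 ± 0.18. The rest of the 15 lowest were OAS2, IFI6, IFITM3, HCP5, IFI44, IFI44L, TNFRSF11B, RIGI and IFITM1.

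**Figure D1:**
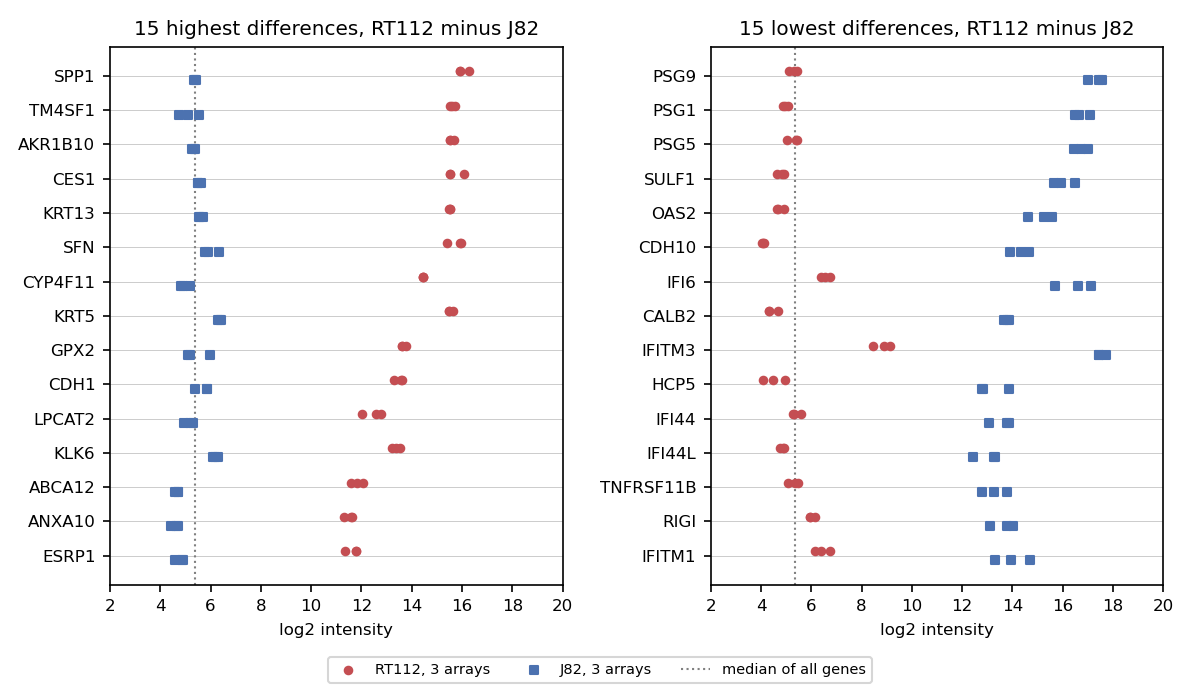
Log2 intensity of the 15 genes with the highest (left) and the 15 with the lowest (right) difference, RT112 minus J82; each circle is an RT112 array, each square a J82 array, and the dotted line marks the median of all genes. Only called genes without overlap of arrays were eligible for the panels, and in most of them the lower line sits close to the dotted line.

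**Figure D2:**
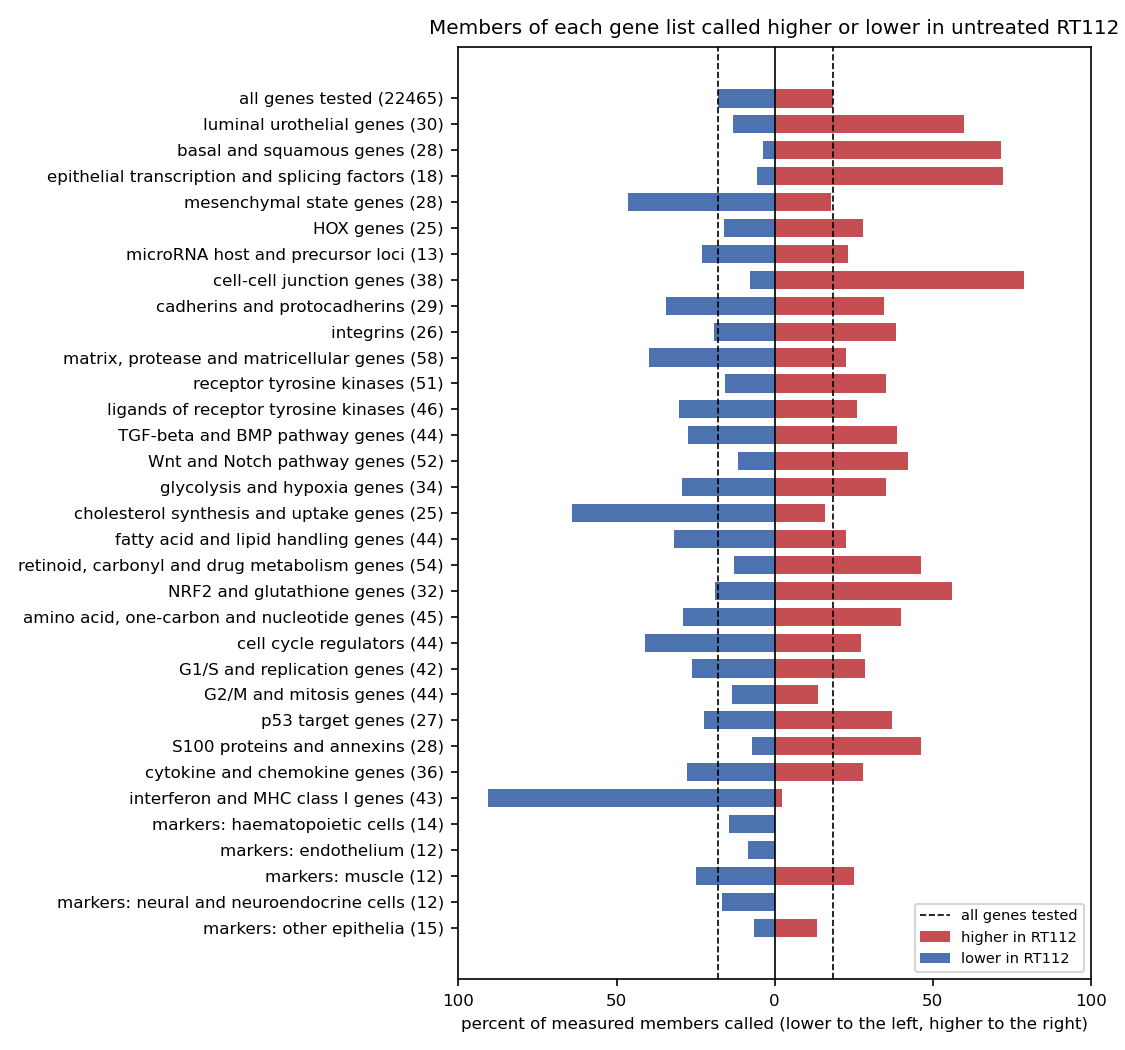
Percent of the measured members of each gene list called higher in RT112 (bars to the right) or lower (bars to the left), with the number measured in brackets; dashed lines mark the shares over all genes tested, 18.4% higher and 17.8% lower. Junction, basal and epithelial factor lists reach furthest right, and the interferon and cholesterol lists furthest left.

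Luminal markers were higher in RT112 for a part of the list only, and the uroplakin plaque genes were mostly low in both lines. Of 30 measured luminal urothelial genes, 18 were higher in RT112 and 4 lower, with a median difference of 0.54. UPK1B, a tetraspanin of the uroplakin plaque, read 9.56, 9.76 and 10.18 in RT112, against 5.16, 5.07 and 4.89 in J82 (difference 4.79 ± 0.16, adjusted p = 1e-06). UPK2, its partner in the plaque, differed by 0.46 ± 0.09, with 6.43, 6.17 and 6.36 in RT112 and 5.83, 5.99 and 5.77 in J82. The terminal luminal markers UPK1A, UPK3A and KRT20 stayed between 4.05 and 5.16 in RT112 and between 3.90 and 4.98 in J82, below the array medians, and none was called (adjusted p = 0.063, 0.0598 and 0.233). UPK3A was called only with array weights (adjusted p = 0.0498) or without RT112 replicate 3 (0.0336). Among these genes UPK1B alone had readings far above the array medians, and these were RT112's.

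The transcription factors of the luminal program were higher in RT112 at moderate levels. PPARG, a nuclear receptor that drives urothelial differentiation, read 7.83, 7.81 and 7.96 in RT112, against 6.09, 5.88 and 5.85 in J82 (difference 1.93 ± 0.09, adjusted p = 4.99e-06). GATA3, a zinc finger factor of luminal urothelium, read 7.84, 7.79 and 7.46 in RT112, against 5.70, 5.94 and 5.65 in J82. FOXA1, a pioneer factor that works with both, read 6.31, 6.04 and 6.22 in RT112, against 5.11, 5.19 and 5.32 in J82. All RT112 arrays lay above all J82 arrays for these factors, and for ELF3 (0.82 ± 0.08) and KLF5 (1.94 ± 0.15). The luminal genes lower in RT112 were MUC1, a cell surface mucin (-1.18 ± 0.07), CYP2J2, an arachidonic acid epoxygenase (-1.82 ± 0.26), and the simple-epithelial keratin pair. KRT8 read 11.49, 11.32 and 11.35 in RT112, against 13.95, 13.72 and 13.44 in J82 (difference -2.32 ± 0.16). Its partner KRT18 read 12.49, 12.74 and 12.37 in RT112, against 14.83, 14.23 and 14.08 in J82. Both lines therefore held high levels of this keratin pair, with J82 the higher. KRT19, a smaller keratin of simple epithelia, went the other way, with 11.71, 11.36 and 12.19 in RT112 against 6.95, 6.98 and 6.59 in J82.

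Basal and squamous genes differed more. Of 28 measured, 20 were higher in RT112 and 1 lower, 14 of them higher by at least 1, and the median difference was 1.00. KRT5, the type II keratin of basal cells, read 15.63, 15.50 and 15.49 in RT112, against 6.36, 6.41 and 6.29 in J82 (difference 9.18 ± 0.11, adjusted p = 2.72e-08). Its type I partner KRT14 read 11.91, 11.39 and 11.87 in RT112, against 5.02, 4.96 and 5.06 in J82. CDH3, the P-cadherin of basal cells, read 11.84, 12.28 and 12.43 in RT112, against 5.85, 5.36 and 5.43 in J82. Some keratins are close in sequence, so part of a reading can come from a relative. SFN, the 14-3-3 sigma protein of squamous epithelia (9.74 ± 0.21), and TRIM29 (3.32 ± 0.12) were also higher in RT112. CD44, a hyaluronan receptor of basal cells, was high in both lines at 13.91, 14.22 and 14.17 in RT112 against 12.62, 13.29 and 13.20 in J82. PI3, the protease inhibitor elafin, was the 1 member lower in RT112, by -1.53 ± 0.31. Of the 28 basal genes 19 lay above the array median in RT112 and 14 in J82, and of the 30 luminal genes 19 in RT112 and 17 in J82.

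**Figure D3:**
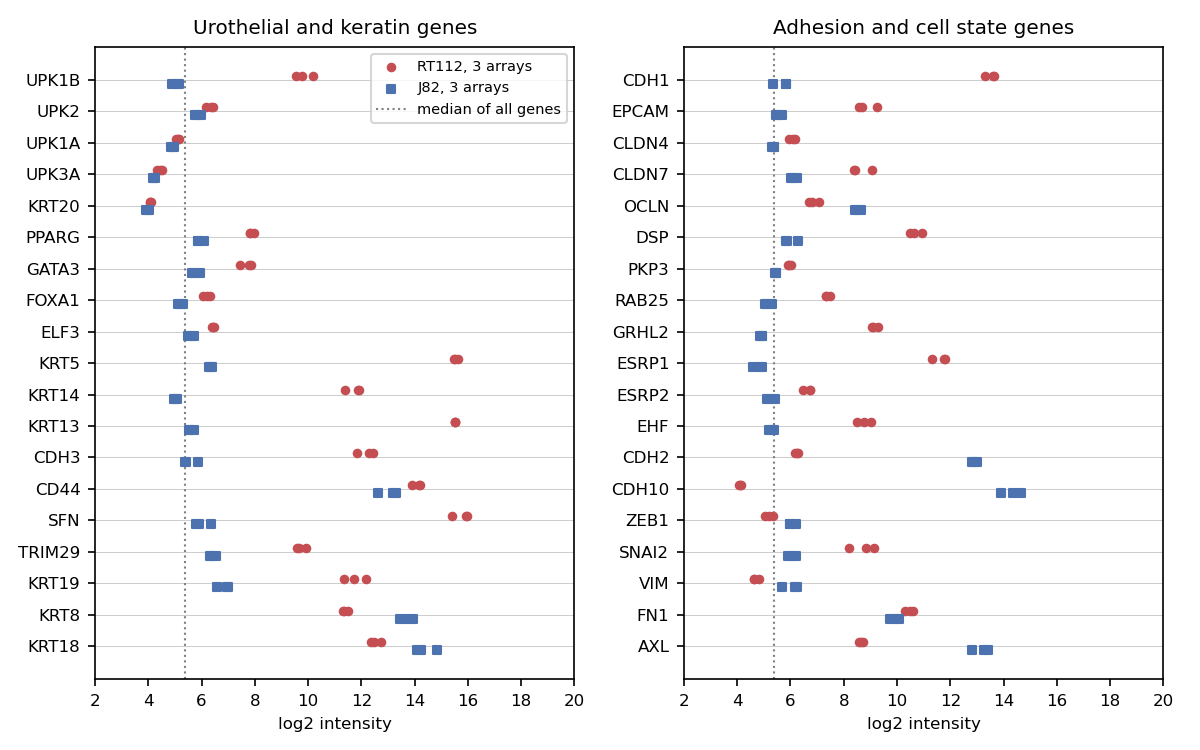
Log2 intensity of urothelial and keratin genes (left) and of adhesion and cell state genes (right); circles are RT112 arrays, squares J82 arrays, and the dotted line is the median of all genes. KRT5, KRT13, SFN and CDH1 separate the lines widely, KRT8, KRT18, OCLN and the cadherins CDH2 and CDH10 are higher in J82, and VIM is low in both.

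Epithelial transcription and splicing factors were also mostly higher in RT112, 13 of 18 measured against 1 lower, with a median difference of 0.56. ESRP1, which directs epithelial splicing of transcripts such as FGFR2 and CD44, read 11.79, 11.33 and 11.78 in RT112, against 4.92, 4.87 and 4.58 in J82. GRHL2, a factor that switches on junction genes, read 9.09, 9.05 and 9.30 in RT112, against 4.93, 4.87 and 4.93 in J82 (difference 4.24 ± 0.09, adjusted p = 1.48e-07). EHF, an ETS factor of epithelia, read 8.77, 8.49 and 9.02 in RT112, against 5.18, 5.38 and 5.29 in J82. For these 3 the J82 readings were at or under the array medians. ESRP2 (1.39 ± 0.11), OVOL2 (0.49 ± 0.09) and OVOL1 (0.36 ± 0.06) were higher in RT112 by less. OVOL1 and OVOL2 read 4.85 to 5.10 in RT112 and 4.40 to 4.64 in J82, under the array medians in both lines. TFAP2A, a factor of ectoderm and neural crest, was the exception at -2.10 ± 0.18, with 6.15, 6.34 and 6.19 in RT112 and 8.74, 8.10 and 8.14 in J82.

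Mesenchymal genes split. Of 28 measured, 13 were lower in RT112 and 5 higher, and 8 were lower by at least 1; the median difference was -0.21. CDH2, the N-cadherin of mesenchymal and neural cells, read 6.16, 6.24 and 6.30 in RT112, against 13.01, 12.82 and 12.90 in J82 (difference -6.68 ± 0.11, adjusted p = 4.37e-08). MSN, a linker of actin to the membrane, CALD1, an actin-binding regulator of contraction, and AXL, a receptor tyrosine kinase of mesenchymal-like cancers, differed by -5.54 ± 0.10, -4.82 ± 0.12 and -4.52 ± 0.18. Other defining members were lower in RT112 by less, were not called or went the other way. VIM, the mesenchymal intermediate filament, read 4.64, 4.63 and 4.80 in RT112 and 6.24, 5.69 and 6.18 in J82, so its difference of -1.35 ± 0.15 lay between levels close to the array medians in both lines. FN1, fibronectin, was higher in RT112 at 10.30, 10.50 and 10.60, against 9.92, 9.75 and 10.06 in J82 (0.56 ± 0.14, adjusted p = 0.0156), a call lost without RT112 replicate 2 or 3 or J82 replicate 2 (adjusted p = 0.0577, 0.054 and 0.0569). SNAI2, a repressor of E-cadherin, was higher in RT112 as well, at 9.14, 8.83 and 8.18 against 6.04, 5.90 and 6.20 in J82 (2.67 ± 0.23, adjusted p = 8.75e-05). ZEB1, another such repressor, differed by -0.85 ± 0.10 at low readings, and SNAI1 (-0.13, adjusted p = 0.231) and TWIST1 (-0.28, adjusted p = 0.0501) were not called, though TWIST1 passed without J82 replicate 3 (0.0081) and under several other settings.

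MicroRNAs of the miR-200 family are known to hold down ZEB1 and ZEB2 in epithelial cells, and the arrays read their precursor loci. They lie in a cluster on chromosome 1 and another on chromosome 12, and their mature strands fall into 2 seed groups. The sequences are shown so that the groups can be read against the values; capitals mark the seed, bases 2 to 8, and the sequences are from RefSeq on GRCh38.p14.
hsa-miR-141-3p (chr12:6964155-6964176, plus strand): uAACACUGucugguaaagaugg
hsa-miR-200a-3p (chr1:1167916-1167937, plus strand): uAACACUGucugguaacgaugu
hsa-miR-200c-3p (chr12:6963742-6963764, plus strand): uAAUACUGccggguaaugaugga
hsa-miR-200b-3p (chr1:1167160-1167181, plus strand): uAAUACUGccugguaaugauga
hsa-miR-429 (chr1:1169055-1169076, plus strand): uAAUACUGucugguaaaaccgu
The first 2 share the seed AACACUG and the other 3 the seed AAUACUG. MIR141, on chromosome 12, read 6.89, 7.70 and 7.03 in RT112, against 4.35, 3.46 and 4.38 in J82 (difference 3.15 ± 0.29, adjusted p = 0.000132). Its neighbour MIR200C read 5.08, 4.94 and 4.93 in RT112, against 4.23, 4.34 and 4.23 in J82 (0.72 ± 0.07). These MIR200C readings lay under the array medians in both lines. The chromosome 1 loci MIR200B, MIR200A and MIR429 were not called, so the called loci of the family were those of chromosome 12, with 1 in each seed group. Of the 13 measured microRNA host and precursor loci, 3 were higher in RT112 and 3 lower. The higher ones were MIR141, MIR200C and MIR100HG (0.55 ± 0.09). The lower ones were MIR31HG (-2.55 ± 0.15), MIR196A1 (-1.46 ± 0.19) and MIR21 (-1.15 ± 0.26). These probe sets read precursors and hosts in total RNA, not mature microRNA. Of 25 HOX genes, which keep the positional identity of a tissue, 7 were higher in RT112 and 4 lower (44% called, against 36.3% of all genes). Most of these differences were small, and only HOXB6 (1.21 ± 0.13) and HOXD10 (-1.93 ± 0.11) differed by at least 1.

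Cell-cell junction genes were the list with the largest share higher in RT112: 30 of 38 measured, with 3 lower and a median difference of 1.23, and 20 higher by at least 1. CDH1, the E-cadherin of adherens junctions, read 13.29, 13.63 and 13.59 in RT112, against 5.85, 5.84 and 5.36 in J82 (difference 7.82 ± 0.17, adjusted p = 1.52e-07). DSP, the desmoplakin that ties desmosomes to keratin filaments, read 10.49, 10.65 and 10.94 in RT112, against 5.83, 5.87 and 6.30 in J82. JUP, a catenin of desmosomes and adherens junctions, read 10.91, 10.75 and 10.27 in RT112, against 6.14, 6.15 and 5.88 in J82. The difference thus spanned adherens junctions and desmosomes, with no overlap of arrays. Further members higher in RT112 were PERP, a desmosomal membrane protein (5.81 ± 0.16), EPCAM, an epithelial adhesion molecule (3.26 ± 0.18), the tight junction claudin CLDN7 (2.51 ± 0.19), RAB25, a GTPase of epithelial membrane recycling (2.22 ± 0.09), CLDN4 (0.72 ± 0.08) and the plakophilin PKP3 (0.52 ± 0.06). The 3 members lower in RT112 were OCLN, the tight junction protein occludin, PARD6B, a polarity adaptor, and DSC2, a desmosomal cadherin. OCLN read 6.68, 6.80 and 7.07 in RT112, against 8.42, 8.48 and 8.66 in J82 (difference -1.67 ± 0.13), PARD6B differed by -1.68 ± 0.19 and DSC2 by -1.80 ± 0.10.

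SNAI2 and ZEB1 are known to bind the E-box CACCTG, so promoters of junction genes were searched for these letters on both strands (CAGGTG is the same site on the other strand). The windows hold 300 bases each, most of them before the gene's start, and are RefSeq's on GRCh38.p14. Of 38 measured junction genes 26 had a promoter in the table, and 12 of these (46.2%) held the E-box, against 20.6% of all 27305 promoters. CDH1, EPCAM and PKP3 had no promoter there and were not searched. The difference between these shares was not tested. Shown are 2 genes higher in RT112 and 1 lower, with the E-box in capitals.
RAB25 (chr1:156060910-156061209, plus strand): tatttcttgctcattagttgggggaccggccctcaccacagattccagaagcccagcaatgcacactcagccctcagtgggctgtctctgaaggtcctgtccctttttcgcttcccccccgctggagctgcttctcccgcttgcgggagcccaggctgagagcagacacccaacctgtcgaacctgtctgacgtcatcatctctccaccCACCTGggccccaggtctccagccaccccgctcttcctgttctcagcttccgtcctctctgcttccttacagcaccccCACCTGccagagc
DSP (chr6:7541421-7541720, plus strand): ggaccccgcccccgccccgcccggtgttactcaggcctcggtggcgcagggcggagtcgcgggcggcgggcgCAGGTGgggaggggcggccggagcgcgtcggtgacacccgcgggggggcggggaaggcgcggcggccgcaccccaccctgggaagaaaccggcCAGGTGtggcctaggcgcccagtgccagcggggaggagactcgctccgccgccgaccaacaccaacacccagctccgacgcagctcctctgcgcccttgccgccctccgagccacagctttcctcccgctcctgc
OCLN (chr5:69492297-69492596, plus strand): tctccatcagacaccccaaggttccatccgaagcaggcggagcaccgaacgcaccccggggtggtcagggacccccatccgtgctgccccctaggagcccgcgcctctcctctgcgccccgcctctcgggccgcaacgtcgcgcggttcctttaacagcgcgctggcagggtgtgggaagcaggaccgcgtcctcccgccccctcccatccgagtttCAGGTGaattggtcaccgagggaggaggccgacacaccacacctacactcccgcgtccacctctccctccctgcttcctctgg
RAB25 has E-boxes that begin 41 bases before and 37 bases after the start, and DSP has E-boxes 178 and 85 bases before it. OCLN, which was higher in J82, has 1 that begins 33 bases before it, so the letters occur in junction genes of either direction. CLDN4 and CLDN7 hold none in this window. The letters AACCGGTT, known as the site of GRHL2 and its relatives, occurred in 0 of the 26 and in 0.117% of all promoters. A match is a description of the window and not evidence of binding.

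The cadherin family as a whole was balanced, with 10 of 29 measured members higher in RT112 and 10 lower. Those higher included CDH1, CDH3 and the giant cadherin FAT2 of squamous epithelia (5.33 ± 0.08). Those lower included CDH2, CDH8 (-2.14 ± 0.09) and the protocadherin PCDH17 (-2.05 ± 0.21). CDH10 read 4.09, 4.05 and 4.13 in RT112, against 13.91, 14.35 and 14.64 in J82, so it mirrored CDH1, each being bright in one line and near or below the array medians in the other.

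Integrins, the receptors for matrix, were higher in RT112 for 10 of 26 and lower for 5, with 6 and 1 past a difference of 1. ITGB4, the chain that anchors basal cells through hemidesmosomes, read 11.84, 12.08 and 11.95 in RT112, against 5.61, 5.70 and 5.68 in J82 (difference 6.30 ± 0.10, adjusted p = 4.8e-08). Its partner ITGA6 read 12.64, 12.87 and 13.22 in RT112, against 8.63, 8.77 and 8.95 in J82. ITGA2, a collagen receptor chain, and ITGB6, a chain of epithelial cells that activates latent TGF-beta, were higher by 5.73 ± 0.16 and 3.33 ± 0.15. Both chains of the laminin-binding hemidesmosome receptor were thus higher in RT112. The collagen receptor chain ITGA1 went the other way, with 4.80, 4.96 and 4.88 in RT112 and 8.47, 8.89 and 9.49 in J82 (difference -4.07 ± 0.23).

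Matrix, protease and matricellular genes were lower in RT112 for 23 of 58 measured and higher for 13. The members lowest in RT112 were IGFBP5 and IGFBP3, secreted binders of insulin-like growth factors (-7.19 ± 0.11 and -3.84 ± 0.14), CCN1, a matricellular target of YAP signalling (-3.94 ± 0.11), and LOXL2, a collagen cross-linker (-3.90 ± 0.10). None of 14 collagens was higher in RT112 and 6 were lower. Higher in RT112 were TGFBI, a matrix protein induced by TGF-beta (5.59 ± 0.13), THBS1, thrombospondin (5.35 ± 0.34), and the matrix proteases MMP14 (4.70 ± 0.20) and MMP13 (2.85 ± 0.13). THBS1 read 15.91, 15.86 and 16 in RT112, against 11.42, 10.06 and 10.24 in J82. The list had 39.7% of its members lower in RT112, against 17.8% of all genes, and 22.4% higher, against 18.4%.

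Receptor tyrosine kinases, which pass growth factor signals into the cell, were higher in RT112 for 18 of 51 measured and lower for 8, with a median difference of 0.11. MST1R and MET, related receptors for macrophage-stimulating protein and hepatocyte growth factor, were the highest. MET read 12.02, 12.16 and 12.59 in RT112, against 9.44, 9.73 and 9.74 in J82 (difference 2.62 ± 0.18, adjusted p = 2.75e-05). MST1R read 8.64, 8.93 and 8.97 in RT112, against 5.93, 6.14 and 6.11 in J82. FGFR3, the fibroblast growth factor receptor often altered in bladder cancer, read 6.94, 6.88 and 6.85 in RT112, against 5.57, 5.60 and 5.56 in J82 (1.32 ± 0.06). The paralogue FGFR1 ran the other way, with 5.79, 5.78 and 5.70 in RT112 and 6.85, 6.69 and 6.70 in J82 (-0.99 ± 0.08). EGFR was well above the array medians in both lines and higher in RT112 by 0.47 ± 0.11, ERBB3 by 0.67 ± 0.07 and IGF1R by 0.45 ± 0.12. The calls of EGFR and IGF1R were lost when some single arrays were left out, with EGFR at an adjusted p of 0.0615 without RT112 replicate 2 and 0.0553 without J82 replicate 2. IGF1R stood at 0.0591 and 0.0766 without RT112 replicates 2 and 3 and at 0.0597 and 0.0775 without J82 replicates 1 and 2. The collagen-binding receptors also swapped, DDR1 being higher in RT112 (1.43 ± 0.19) and DDR2 lower (-3.20 ± 0.16). AXL had the lowest difference of the list, with 8.57, 8.72 and 8.65 in RT112 against 13.42, 13.28 and 12.80 in J82. PDGFRB, a receptor of mesenchymal cells, was lower by -1.93 ± 0.09.

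Of 46 measured genes listed as ligands of these receptors or as related factors, 12 were higher in RT112 and 14 lower. EFNB1 and EFNB2, membrane ligands of ephrin receptors, were higher by 2.94 ± 0.10 and 2.40 ± 0.19, and the ERBB4 ligand NRG4 by 2.64 ± 0.10. VEGFA and VEGFC, which act on blood and lymph vessels, moved apart: VEGFA was higher in RT112 (1.01 ± 0.14) and VEGFC lower (-2.43 ± 0.11). CSF1, the macrophage growth factor, and FGF12, an intracellular member of the FGF family, were lower by -2.82 ± 0.18 and -3.07 ± 0.17.

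The TGF-beta system differed at each level. TGFB1 was higher in RT112 (1.08 ± 0.08) at low readings, 5.54, 5.69 and 5.41 against 4.51, 4.50 and 4.39 in J82. TGFB2 read 7.21, 6.95 and 7.17 in RT112, against 12.13, 12.19 and 12.19 in J82 (difference -5.06 ± 0.11, adjusted p = 1.57e-07). The type II receptor TGFBR2 read 9.55, 9.36 and 9.31 in RT112, against 5.41, 5.45 and 5.4 in J82 (3.99 ± 0.09). The type I receptor TGFBR1 read 6.64, 6.72 and 7.08 in RT112, against 8.86, 9.12 and 8.74 in J82 (-2.09 ± 0.15). The 2 chains of the signalling receptor therefore differed in opposite directions, and the co-receptor TGFBR3 was lower in RT112 (-2.20 ± 0.22). ID1, a target of BMP signalling, was higher by 2.38 ± 0.19, and the inhibitory SMAD6 was lower by -2.11 ± 0.16. Over all 44 measured members 17 were higher and 12 lower. In the Wnt and Notch pathways 22 of 52 were higher in RT112 and 6 lower. The Notch ligand JAG1 read 11.78, 12.06 and 12.42 in RT112, against 6.56, 6.5 and 6.88 in J82 (5.44 ± 0.19). NOTCH3 (1.62 ± 0.06) and JAG2 (1.56 ± 0.09) were higher in RT112 too, while NOTCH2 (-1.18 ± 0.15) and the secreted Wnt inhibitor DKK1 (-1.84 ± 0.13) were lower.

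Among metabolic lists, cholesterol synthesis and uptake stood lowest in RT112: 16 of 25 measured members were lower and 4 higher, with a median difference of -0.98. HMGCS1, the enzyme that makes HMG-CoA for sterol synthesis, read 6.54, 6.53 and 6.62 in RT112, against 10.38, 11.49 and 11.75 in J82 (difference -4.64 ± 0.32, adjusted p = 2.98e-05). CYP51A1, the lanosterol demethylase, read 7.24, 7.5 and 7.42 in RT112, against 9.64, 10.99 and 11.12 in J82. MSMO1, a sterol methyl oxidase, read 11.01, 10.92 and 11.30 in RT112, against 13.03, 14.71 and 14.74 in J82. For these enzymes replicate 1 of J82 lay well below its other replicates yet above all of RT112. That held widely: replicate 1 was the lowest J82 array in 16 of the 16 members called lower, against 37.2% of all genes. Within-group SDs of these members had a median of 0.09 in RT112 and 0.38 in J82. Of 18 sterol synthesis enzymes 13 were lower in RT112. ABCA1, which exports cholesterol, was lower as well (-3.71 ± 0.47). Higher in RT112 were STARD4, a sterol carrier (1.39 ± 0.09), SREBF1, a factor of lipid synthesis genes (1.02 ± 0.24), SC5D, a late sterol enzyme (0.53 ± 0.15), and the exporter ABCG1 (0.46 ± 0.06). SREBF1 was not called without RT112 replicate 2 (adjusted p = 0.0529), nor SC5D without any single RT112 array (0.0513 to 0.0841) or without J82 replicate 2 (0.0636).

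Fatty acid and lipid handling genes were more even, with 10 of 44 higher in RT112 and 14 lower. The prostaglandin enzymes PTGES, PTGS1 and PTGS2 were higher by 2.35 ± 0.15, 1.63 ± 0.09 and 0.55 ± 0.09. PLIN2, a coat protein of lipid droplets, and CPT1A, which admits fatty acids to mitochondria, were lower by -1.86 ± 0.13 and -1.79 ± 0.11. Glycolysis and hypoxia genes were split, with 12 of 34 higher and 10 lower. The glucose transporters moved apart: SLC2A1 read 11.90, 11.92 and 12.02 in RT112, against 8.87, 9.12 and 9.33 in J82 (difference 2.84 ± 0.14). SLC2A3 read 5.71, 5.91 and 5.68 in RT112, against 7.77, 9.24 and 9.56 in J82 (-3.09 ± 0.42). Hexokinase HK2 (0.34, adjusted p = 0.0943) and the lactate dehydrogenases LDHA (-0.28, adjusted p = 0.104) and LDHB (-0.08, adjusted p = 0.61) were not called, though HK2 passed without J82 replicate 3 (adjusted p = 0.0348) and LDHA passed with eBayes run without a trend (0.0265). EPAS1, a hypoxia-inducible factor, was higher in RT112 (1.45 ± 0.17), and ADM, the hypoxia-induced peptide adrenomedullin, lower (-3.09 ± 0.17).

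Genes of carbonyl, retinoid and drug metabolism were higher in RT112 for 25 of 54 measured and lower for 7, with 17 higher by at least 1. AKR1B10, which reduces retinal and other carbonyls, read 15.70, 15.52 and 15.54 in RT112, against 5.27, 5.34 and 5.38 in J82. CYP4F11, a fatty acid hydroxylase, read 14.46, 14.45 and 14.45 in RT112, against 4.91, 5.17 and 4.83 in J82 (difference 9.48 ± 0.12, adjusted p = 2.72e-08). AKR1C2 and AKR1C1, steroid reductases that are near copies of each other and may share signal, were higher by 5.21 ± 0.15 and 2.77 ± 0.15. The retinal dehydrogenases ALDH1A1 (1.36 ± 0.07) and ALDH1A3 (1.28 ± 0.19) were higher in RT112, and RDH10, the retinol dehydrogenase that acts before them, was lower (-3.10 ± 0.26).

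Several of these genes are known targets of NRF2, the factor of the oxidative stress response. In the NRF2 and glutathione list 18 of 32 measured members were higher in RT112 and 6 lower, with a median difference of 0.74. GPX2, a glutathione peroxidase of epithelia, read 13.60, 13.60 and 13.78 in RT112, against 5.12, 5.17 and 5.99 in J82 (difference 8.24 ± 0.23, adjusted p = 4.7e-07). ABCC2, an exporter of conjugates (5.11 ± 0.09), PGD, an enzyme of the pentose phosphate pathway (3.24 ± 0.14), and GSR, glutathione reductase (3.08 ± 0.13), were higher too. Not all known targets followed. NQO1 read 14.80, 14.68 and 14.83 in RT112 and 15.37, 14.79 and 14.64 in J82 and was not called (adjusted p = 0.567), and TXNRD1, thioredoxin reductase, was lower in RT112 (-1.36 ± 0.10). KEAP1, the protein that holds NRF2 back, was lower by -1.02 ± 0.12.

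Amino acid, one-carbon and nucleotide genes were higher for 18 of 45 and lower for 13. SLC7A5, the transporter of large neutral amino acids, read 16.26, 16.22 and 16.23 in RT112, against 13.04, 12.48 and 12.62 in J82 (difference 3.52 ± 0.16). KYNU, of tryptophan breakdown (4.24 ± 0.16), SAT1, of polyamine breakdown (2.95 ± 0.34), and OAT, of ornithine metabolism (2.88 ± 0.11), were higher in RT112. DPYD, which breaks down pyrimidines and the drug fluorouracil, read 5.77, 5.55 and 5.97 in RT112, against 10.14, 9.61 and 9.84 in J82 (-4.10 ± 0.16). BCAT1, a branched-chain aminotransferase, and PSAT1, of serine synthesis, were lower by -2.94 ± 0.09 and -2.44 ± 0.13, whereas PHGDH, the first enzyme of serine synthesis, was higher by 0.66 ± 0.08. TYMS, thymidylate synthase, was lower by -1.42 ± 0.24, and the deaminase CDA was not called (0.14, adjusted p = 0.236).

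Cell cycle regulators matter in this series because the drug of its other arrays acts on CDK4 and CDK6. Of 44 measured, 12 were higher in RT112 and 18 lower, with a median difference of -0.26. CDK6 read 8.64, 8.59 and 8.75 in RT112, against 7.12, 6.69 and 6.69 in J82 (difference 1.83 ± 0.13, adjusted p = 3.95e-05). CDK4 read 13.67, 13.49 and 13.28 in RT112 and 14.31, 13.88 and 13.77 in J82, and was not called (-0.50, adjusted p = 0.0693). CCND1, cyclin D1, read 10.77, 10.63 and 10.39 in RT112 and 11.66, 11.08 and 10.89 in J82, and was not called either (-0.61, adjusted p = 0.0625). For both genes all RT112 arrays lay below all J82 arrays, with replicate 1 the highest in J82. CCND1 passed without J82 replicate 3 (adjusted p = 0.0348) and read -0.39 without J82 replicate 1, and both genes passed among genes above the median intensity (0.0362 for CCND1 and 0.0443 for CDK4). CCND3 was higher in RT112 (0.59 ± 0.09), and CCND2 read between 4.12 and 4.42 on every array and was not called (adjusted p = 0.186).

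RB1, the pocket protein that CDK4 and CDK6 inactivate, read 8.87, 8.65 and 8.83 in RT112, against 10.33, 10.28 and 10.42 in J82 (difference -1.56 ± 0.11, adjusted p = 3.27e-05). Its relatives RBL1 and RBL2 were not called (adjusted p = 0.354 and 0.286). CCNE1, the cyclin that acts with CDK2 after RB1, read 7.23, 7.27 and 7.06 in RT112, against 9.20, 8.84 and 8.68 in J82 (-1.72 ± 0.15), and CDK2 was lower by -0.84 ± 0.13. CDK1 (1.74 ± 0.14) and CCNA2 (1.69 ± 0.15), which act later in the cycle, were higher in RT112, and CCNB1 was not called (-0.48, adjusted p = 0.136) except without J82 replicate 3 (0.0267). SKP2, which marks the inhibitor p27 for destruction, read 10.98, 10.79 and 10.70 in RT112, against 13.12, 12.90 and 12.93 in J82 (-2.16 ± 0.13). CDKN1B, the gene of p27, was lower in RT112 too (-1.16 ± 0.09), and CDKN1A, the gene of p21, was higher (0.65 ± 0.09). The E2F factors went both ways, with E2F8 (1.34 ± 0.16), E2F4 (1.23 ± 0.14) and E2F2 (0.46 ± 0.08) higher in RT112 and E2F5 (-1.83 ± 0.12), E2F3 (-0.86 ± 0.13) and E2F1 (-0.70 ± 0.18) lower. The E2F1 call was lost without RT112 replicate 1 or 3 (adjusted p = 0.0576 and 0.0632). MYC was higher by 1.11 ± 0.15.

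The inhibitors of CDK4 and CDK6 encoded on chromosome 9 were lower in RT112. CDKN2A, the gene of p16 and ARF, read 5.67, 5.56 and 5.67 in RT112, against 7.28, 7.36 and 7.62 in J82 (difference -1.79 ± 0.10, adjusted p = 1.15e-05). CDKN2B, the gene of p15, read 5.17, 5.12 and 5.08 in RT112, against 6.80, 7.15 and 7.26 in J82 (-1.95 ± 0.12). MTAP, the neighbouring enzyme that recycles methylthioadenosine, read 4.78, 4.74 and 4.85 in RT112, against 8.39, 8.25 and 8.18 in J82 (-3.48 ± 0.08, adjusted p = 2.15e-07). All 3 RT112 readings lay near the array medians, with no overlap between the lines. A second probe set of MTAP differed by -0.68 only. The genes around them were read in order of position, from MLLT3 to IFT74, in a window chosen after the values were seen. The antisense gene CDKN2B-AS1 (-1.41 ± 0.10), MIR31HG (-2.55 ± 0.15), IFNE (-1.5 ± 0.33) and ELAVL2 (-1.58 ± 0.11) were lower in RT112 as well, whereas CDKN2A-AS1, DMRTA1 and the interferon alpha genes were not called and read low in both lines; IFNA2 passed without RT112 replicate 2 (adjusted p = 0.0402) or J82 replicate 3 (0.0207). Further out, HACD4 was lower by -1.76 ± 0.18, FOCAD by -0.56 ± 0.15 and KLHL9 by -0.39 ± 0.11, and MLLT3 was higher by 0.51 ± 0.09. The FOCAD call was lost without RT112 replicate 1 or 2 (adjusted p = 0.0761 and 0.0675), and that of KLHL9 without any array but RT112 replicate 3 (0.0542 to 0.0801). FOCAD and KLHL9 read above 7 in RT112, so low readings did not fill the whole window. Between KLHL9 and ELAVL2, from IFNA6 to DMRTA1, every RT112 mean was 5.63 or less. Several of these genes read low in J82 as well, and a cause was not tested. DNA copy number was not measured by these arrays.

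**Figure D4:**
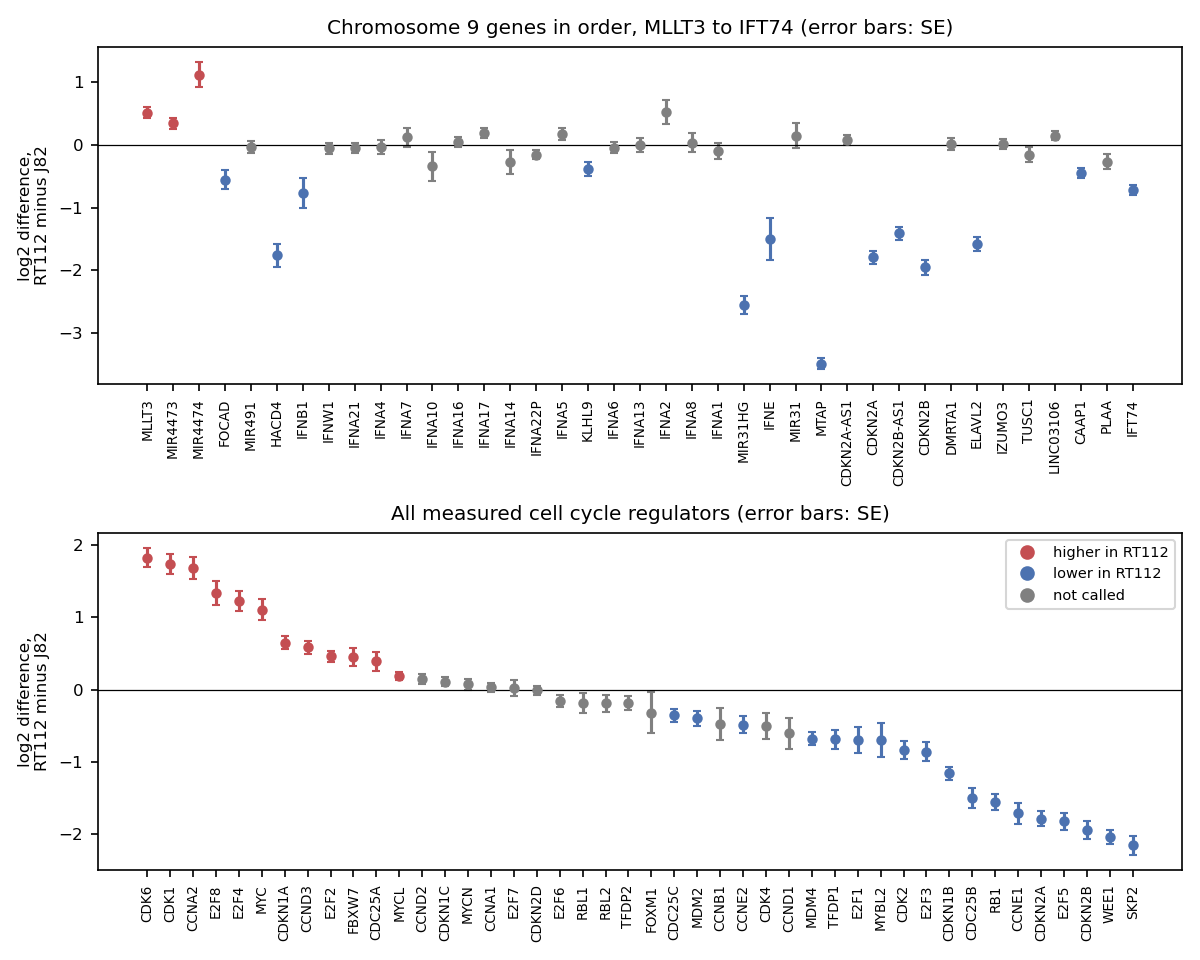
Log2 difference, RT112 minus J82, with its standard error, for chromosome 9 genes in order of position (top) and for all 44 measured cell cycle regulators in order of difference (bottom); red marks genes called higher in RT112, blue lower, grey not called. MTAP has the lowest point of the top panel at -3.48, and the bottom panel runs from CDK6 at 1.83 to SKP2 at -2.16.

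Genes of the cycling machinery had medians near 0 with calls in both directions. Of 42 G1/S and replication genes 12 were higher in RT112 and 11 lower (54.8% called, above the 36.3% of all genes), with a median difference of 0.09, led by CHAF1B, a chromatin assembly factor (2.10 ± 0.14), and PRIM1, a primase subunit (1.5 ± 0.15). Of 44 G2/M and mitosis genes 6 were higher and 6 lower (27.3% called, under the 36.3% of all genes), with a median of -0.06. AURKB and NDC80, of the kinetochore, were lower by -1.43 ± 0.22 and -1.41 ± 0.14, and the mitotic motor KIF11 was higher by 1.49 ± 0.12. Targets of p53 were higher for 10 of 27 and lower for 6, and the leading ones were PERP and the squamous serpin SERPINB5 (3.67 ± 0.13) on one side and PLK2 (-3.02 ± 0.15) on the other.

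Interferon-stimulated and MHC class I genes were the list with the largest share called: 39 of 43 measured members were lower in RT112 and 1 was higher, 37 were lower by at least 1, and the median difference was -3.84. OAS2, which makes the messenger that switches on the nuclease RNase L, read 4.63, 4.90 and 4.66 in RT112, against 14.62, 15.26 and 15.59 in J82 (difference -10.43 ± 0.24, adjusted p = 1.82e-07). IFI6, an antiviral membrane protein, read 6.73, 6.39 and 6.53 in RT112, against 15.69, 16.61 and 17.12 in J82. RIGI, a sensor of viral RNA, read 5.93, 5.96 and 6.15 in RT112, against 13.09, 13.77 and 14.04 in J82. J82 arrays thus read these genes at 13.09 or more, with no interferon treatment named in the labels, and RT112 arrays read them at 6.73 or less. IFI44, IFI44L, IFITM1 and IFITM3 differed by -8.17 ± 0.22, -8.15 ± 0.23, -7.55 ± 0.33 and -8.70 ± 0.19. IFITM3 still read 8.89, 9.14 and 8.47 in RT112, and it shares much sequence with IFITM1. Replicate 1 was the lowest of the J82 arrays in 36 of the 39 members called lower (92.3%), as it was for sterol enzymes. Among all genes called lower that share was 39.8%. Of limma's array weights, that of J82 replicate 1 was the lowest at 0.594, against 0.931 to 1.31 for the other arrays.

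Among the MHC genes all 6 measured heavy chains and B2M were lower in RT112, with a median of -4.85; the examples given here were chosen after their values were seen. HLA-B, a classical antigen-presenting heavy chain, averaged 7.18 in RT112 and 14.65 in J82 (difference -7.47 ± 0.23, adjusted p = 6.28e-07). B2M, the light chain of all class I molecules, averaged 12.26 in RT112 and 14.76 in J82, so RT112 kept a high reading of it. TAP1, a subunit of the peptide transporter, differed by -3.62 ± 0.27, while its partner TAP2 was not called (-0.42, adjusted p = 0.153). Beside TAP2, only the transcription factor IRF1 (-0.16, adjusted p = 0.159) and the exonuclease ISG20 were not called, and ERAP2, a peptide trimmer of the endoplasmic reticulum, was the 1 member higher in RT112 (1.13 ± 0.29, adjusted p = 0.0202). That call was lost without RT112 replicate 2 or 3 (adjusted p = 0.0593 and 0.0644). HLA probe sets overlap in sequence between loci and between alleles, and the arrays cannot tell allele differences between the lines from amount. Probe sets of HCP5, a transcript within the class I region, ran from -8.64 to -2.98.

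Promoters of these genes were searched for GAAA followed by 2 bases of any kind and a further GAAA, on both strands, letters from the core of the interferon-stimulated response element, a motif chosen after the values were seen. The RefSeq table had 34 promoters of the list, and the letters were in 23 of them (67.6%), against 3.65% of all 27305 promoters and 1 of the 26 junction promoters. The promoters of 3 genes are shown as examples of the pattern, with the letters in capitals; overlapping matches run together.
IFI6 (chr1:27672143-27672442, minus strand): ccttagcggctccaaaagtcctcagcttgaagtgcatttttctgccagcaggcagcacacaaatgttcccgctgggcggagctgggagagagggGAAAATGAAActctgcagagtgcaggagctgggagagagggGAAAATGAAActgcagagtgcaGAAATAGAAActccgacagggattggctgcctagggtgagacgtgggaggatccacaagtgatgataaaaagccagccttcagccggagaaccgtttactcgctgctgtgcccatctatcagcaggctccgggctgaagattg
IFI44L (chr1:78620198-78620497, plus strand): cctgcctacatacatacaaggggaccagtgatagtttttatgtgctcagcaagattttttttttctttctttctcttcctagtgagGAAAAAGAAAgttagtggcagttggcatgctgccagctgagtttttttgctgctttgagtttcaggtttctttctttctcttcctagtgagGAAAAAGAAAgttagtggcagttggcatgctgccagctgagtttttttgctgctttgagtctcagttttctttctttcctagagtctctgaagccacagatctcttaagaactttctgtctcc
B2M (chr15:44711267-44711566, plus strand): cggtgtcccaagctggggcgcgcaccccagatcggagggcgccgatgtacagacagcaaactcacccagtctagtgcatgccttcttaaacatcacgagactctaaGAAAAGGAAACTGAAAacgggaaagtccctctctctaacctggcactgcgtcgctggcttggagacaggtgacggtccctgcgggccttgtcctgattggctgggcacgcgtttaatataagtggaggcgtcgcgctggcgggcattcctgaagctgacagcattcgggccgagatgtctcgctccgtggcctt
IFI6 holds 3 matches that begin 156, 115 and 93 bases before the start, IFI44L holds 2 at 164 and 73 bases, and B2M holds 2 overlapping ones at 144 and 138 bases. HLA-B and RIGI hold none in this window. The list was made of genes known to respond to interferon, and the share is a description of it.

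**Figure D5:**
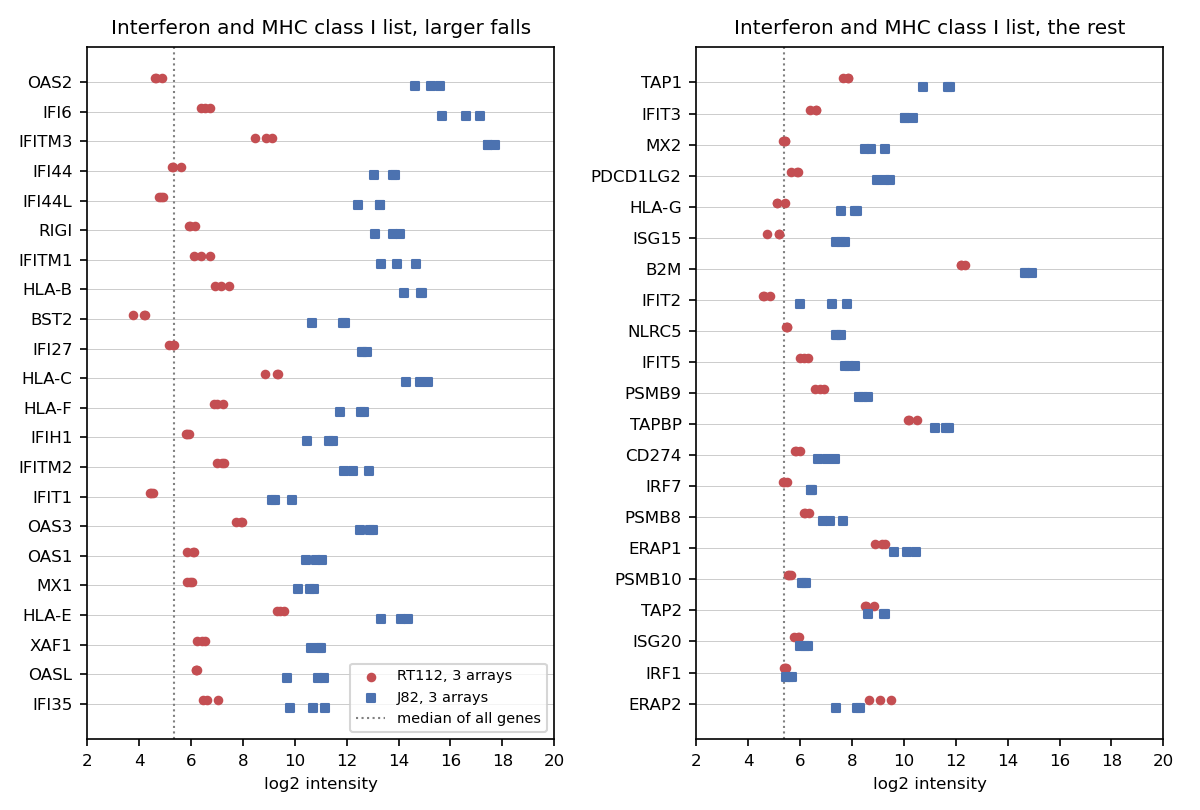
Log2 intensity of the 43 measured interferon and MHC class I genes in order of difference, larger falls on the left; circles are RT112 arrays, squares J82 arrays, and the dotted line is the median of all genes. RT112 sits below J82 for nearly all, with TAP2 and IRF1 close together and ERAP2 turned round.

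Cytokines and chemokines were even in number, 10 of 36 higher in RT112 and 10 lower. IL1A and IL1B, the interleukin-1 pair of epithelial alarm signals, were higher by 2.58 ± 0.13 and 2.28 ± 0.17. IL6, the acute-phase cytokine, read 5.90, 6.02 and 5.85 in RT112, against 7.93, 9.22 and 9.86 in J82 (difference -3.08 ± 0.43), again with replicate 1 lowest in J82. The interferon-induced TNFSF10 and CXCL10 were lower by -2.49 ± 0.56 and -1.88 ± 0.20. Among S100 proteins and annexins, calcium-binding families, 13 of 28 were higher in RT112 and 2 lower, with ANXA10 (6.93 ± 0.13), S100P (4.06 ± 0.14) and S100A14 (3.56 ± 0.19) on top.

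Pregnancy-specific glycoproteins were singled out after their values were seen. All 10 measured loci were lower in RT112, with a median of -5.81. PSG9 read 5.10, 5.33 and 5.43 in RT112, against 16.99, 17.44 and 17.57 in J82 (difference -12.05 ± 0.18, adjusted p = 4.14e-08). The smallest difference was that of PSG3, -4.18 ± 0.21. These genes lie together on chromosome 19 and are near-identical, so signal of a few can appear in all, and the number of loci active in J82 cannot be read from these values.

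Most markers of other cell types read low on all arrays. Of 14 haematopoietic markers 2 differed, CD68 (-3.33 ± 0.24) and CD14 (-1.26 ± 0.22), both lower in RT112, while PTPRC, CD3E and the others were not called. Of 12 endothelial markers FLT1 alone differed (-0.42 ± 0.07), and of 12 neural and neuroendocrine markers ENO2 (-1.23 ± 0.13) and UCHL1 (-0.67 ± 0.06), all 3 lower in RT112. Muscle markers were called in 3 of 12 in each direction, the furthest being ACTC1 at -0.70 ± 0.16, but the other 5 calls (ACTA2, SYNPO2, DES, LMOD1 and ACTG2) were all lost without RT112 replicate 2 (adjusted p = 0.0507 to 0.126) and mostly without other single arrays. Among 15 markers of other epithelia, LRP2, the endocytic receptor megalin of kidney tubules, read 4.70, 4.65 and 4.62 in RT112, against 8.32, 8.95 and 9.28 in J82 (-4.20 ± 0.22), with SFTPB and APOA1 higher in RT112 by 0.22 and 0.19; these calls were lost without most single arrays (adjusted p up to 0.115 for SFTPB and 0.133 for APOA1). The haematopoietic list averaged 4.64 to 4.69 per array in RT112 and 4.82 to 4.99 in J82, and the list of other epithelia 4.53 to 4.57 in RT112 and 4.70 to 4.77 in J82, all below the array medians. As to the bladder label itself, RT112 arrays read UPK1B, UPK2, PPARG, GATA3, FOXA1, ELF3, KRT5, KRT14, CDH3, CD44, KRT8 and KRT18 above the medians. J82 arrays read PPARG, GATA3, UPK2, ELF3, KRT5, CD44, KRT8 and KRT18 above the medians. Of these, GATA3, ELF3 and UPK2 read 5.48 to 5.99 in J82, close to the medians, as did CDH3 (5.36 to 5.85). UPK1B, KRT14 and FOXA1 lay under the medians in J82, and both lines had UPK1A, UPK3A and KRT20 under them. Fewer cells with a transcript and less transcript per cell cannot be told apart in these bulk samples.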

How the data were processed

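Total RNA was labelled with biotin and, per the labels' protocols, hybridised to Affymetrix arrays of the whole transcriptome. The authors deposited log2 intensities, in 1 table of 70523 rows for 18 arrays. The submitters' processing notes name RMA and Affymetrix Expression Console; no genome build was found among the sources. Of the probe sets, 23781 carried 1 symbol in the platform annotation, 1543 carried several and 45199 had none listed; 479 symbols had several probe sets. No array was a copy of another, and no gene was dropped for low intensity.

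The 6 arrays were fitted by group with limma 3.58.1 under R 4.3.3 (lmFit, then eBayes with an intensity trend; 4 residual degrees of freedom). Benjamini-Hochberg adjustment ran over 22465 genes, with a threshold of 0.05. On simulated data of this comparison, with 200 of 22465 genes changed, 76% of changes of 1 and 98% of changes of 2 were found, beside 12 false calls. These rates hold for that setting only. In the data 8147 genes were called, which makes the adjustment less strict, and the simulated noise was independent between genes.

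Members, the 32 gene lists and the named genes were chosen with earlier results of these data known, and lists were described by counts and medians without a test. Of 1162 list entries 1049 matched a measured gene; the others were not analysed here. Named are the 15 highest and 15 lowest differences whose groups do not overlap (without sex-linked markers, uncharacterised loci, small RNAs, pseudogenes and receptor segments), genes marked as key in the lists, and the 4 leading called members of each list in each direction. Not all of the 289 genes this gives are described; 44 were added after values were seen, beside a few named as such. Sequences are RefSeq's on GRCh38.p14. The labels do not say that replicate numbers pair the samples, so no pairing was used. Deviations of same-numbered arrays correlated by 0.149, -0.082 and 0.101, which is too few arrays to settle whether they were paired. Alternatives were a replicate block, other scalings, gene filters, probe set rules, variance priors, array weights, a minimum difference and each array left out.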

Additional observations from a re-analysis of the deposited data

How the results depend on the processing

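The called genes numbered 6026 to 8362 over the alternatives that kept the threshold alone, 6629 to 7585 with 1 array left out, and 2595 (1063 higher and 1532 lower in RT112) with a difference of at least 1. The share of called genes that were higher in RT112 was 50.8% as reported, 47.2% with arrays shifted to one median, 52.8% with quantile normalization and 46.0% among genes above the median intensity. Of 286 called genes among those named, 0 reversed in any alternative and 0 to 21 lost the call, apart from 67 at a difference of at least 1. Under the replicate block, a pairing that the labels do not state, 7673 genes were called (3798 higher and 3875 lower in RT112). Of the 6 arrays, 4 correlated best with the array of their own number. CCND1 and CDK4 were called under the block (adjusted p = 0.0212 and 0.0226), and KLHL9, SFTPB and APOA1 were not (0.053, 0.0815 and 0.1). Counts of called list members fell with a difference of at least 1, by construction, to luminal 12, epithelial factors 7, mesenchymal 9, HOX 2, cadherins 13, integrins 7, matrix 23, receptor kinases 11, their ligands 14, TGF-beta 13, Wnt and Notch 10, glycolysis 8, fatty acid 10, drug metabolism 20, NRF2 14, amino acid 16, cell cycle regulators 15, G1/S 6, G2/M 5, p53 6, S100 7 and cytokines 8. Among genes above the median intensity, where fewer were tested, called members were epithelial factors 9, HOX 6, cadherins 13, TGF-beta 19, Wnt and Notch 18 and cytokines 11. List medians there were luminal 0.80, basal 3.02, epithelial factors 1.39, mesenchymal -0.77, HOX 0.32, microRNA loci -0.78, junction 1.92, cadherins 1.18, integrins 1.5, matrix -0.62, receptor kinases 0.67, Wnt and Notch 0.27, fatty acid -0.27, drug metabolism 0.32, cell cycle regulators -0.44, S100 0.49 and cytokines -0.14. Under quantile normalization medians moved to epithelial factors 0.51, HOX 0.02, junction 1.36, integrins 0.10, matrix -0.04, receptor kinases 0.05, glycolysis 0.19, drug metabolism 0.28, NRF2 0.85, G1/S 0.15 and p53 0.02; the cause was not tested. With arrays shifted to one median they were HOX 0.03 and TGF-beta 0.08, and with array weights HOX 0.02 and matrix -0.06. With 1 array left out, medians ranged over HOX 0.00 to 0.07, microRNA loci -0.05 to 0.22, matrix -0.08 to 0.01, TGF-beta 0.11 to 0.14, drug metabolism 0.16 to 0.27, NRF2 0.64 to 0.82, p53 -0.05 to 0.05, and interferon and MHC -4.21 to -3.67. Medians of the HOX, matrix, p53, microRNA and cytokine lists lie so near 0 that they give no direction. The deposited values carry no detection p-values, so readings near the array medians cannot be told from background.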

Other observations

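Genes upstream of the interferon-stimulated set, looked at after the main values were seen, did not all share its direction. The DNA sensor CGAS averaged 5.63 in RT112 and 8.04 in J82 (difference -2.41 ± 0.11 SE, adjusted p = 3.09e-06), the adaptor MAVS 6.66 in RT112 and 8 in J82, and the RNA sensor TLR3 6.79 in RT112 and 8.57 in J82. The receptor chain IFNAR1 was higher in RT112, at 9.91 against 8.66 in J82 (1.24 ± 0.13, adjusted p = 0.000258), and the kinase JAK1 was not called (adjusted p = 0.502). IFNB1 was lower in RT112 at readings of 4.03, 3.88 and 3.50, against 4.10, 5.05 and 4.56 in J82, all below the array medians, and its call was lost without any single array but J82 replicate 1 (adjusted p = 0.0535 to 0.123).

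Among zinc finger genes, 121 of 227 ZNF genes on chromosome 19 were lower in RT112 (53.3%) and 16 higher (7.05%). On other chromosomes 66 of 224 were lower (29.5%) and 22 higher (9.82%). Over all genes tested 17.8% were lower and 18.4% higher. Chromosome 19 as a whole also leaned lower, with 275 lower and 90 higher of 654 protein-coding genes above the median intensity (median -0.19). The difference between these shares was not tested. In the stretch from ZNF430 to ZNF91, chosen after the values were seen, 19 of 19 were lower, with a median of -1.82. ZNF91, a repressor of retroelements, read 7.66, 7.79 and 7.62 in RT112, against 11.12, 10.94 and 11.11 in J82 (-3.37 ± 0.11). These genes share much sequence, so their readings are not independent.

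Median differences of protein-coding genes above the median intensity ranged over the chromosomes from -0.79 on 18 and -0.61 on 13 to 0.58 on 21, against -0.03 over all autosomes. Copy number was not measured here.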
